A study of Mus musculus with 10 samples.

Results

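The genes described here are 9 regulators of G protein signalling, Rgs1, Rgs2, Rgs3, Rgs10, Rgs13, Rgs14, Rgs16, Rgs18 and Rgs19, taken by gene symbol from a table of 54532 genes. Every symbol matched a single gene of the table. RNA sequencing compared splenic B cells of fibrotic mice, which had received intraperitoneal carbon tetrachloride (CCl4, a solvent that injures hepatocytes) for 4 weeks, with those of wildtype mice, and each group held 5 libraries. The sources used here do not give strain, age, sex, any control injection or how the B cells were isolated, nor do they state that each library came from a separate mouse. The p-values therefore measure only the spread among libraries, part of which may be technical.

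RGS proteins end signals from G protein-coupled receptors. Such a receptor loads the alpha subunit of a heterotrimeric G protein with GTP, and the RGS domain speeds the hydrolysis of that GTP, so that alpha and beta-gamma subunits come back together. In B cells most chemokine and sphingosine-1-phosphate receptors act through Gi, and RGS proteins, Rgs1 and Rgs13 above all, are known to limit migration towards chemokines. Rgs1, Rgs2, Rgs3, Rgs13, Rgs16 and Rgs18 belong to the subfamily of mostly small proteins built around the RGS domain, Rgs10 and Rgs14 to the subfamily of Rgs12, and Rgs19 to that of the G alpha-interacting proteins.

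In fibrosis 6 of the 9 genes were higher, Rgs1, Rgs18 and Rgs13 the most, then Rgs3, Rgs14 and Rgs19. Rgs2 and Rgs10 did not pass the test, and Rgs16 had too few counts to enter it. By edgeR's quasi-likelihood test with Benjamini-Hochberg adjustment, 0 of the 8 tested genes were lower, and 0 at an unadjusted p under 0.05. Rgs16 was lower by DESeq2 and by edgeR without a filter on low counts, as the only 1 of the 9 members in either. Across all 14283 tested genes, 18.6% were higher and 17.2% lower at an adjusted p under 0.05, the threshold used throughout. The median log2 change was 0.46 over the 8 tested RGS genes and 0.05 over all tested genes. In a bulk sample, fewer cells of a type and less RNA per cell cannot be told apart.

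Levels are given in CPM, counts scaled to a common library total after TMM scaling, which evens out library composition, and changes as log2 fold changes of fibrosis minus control with their standard error. Total counts were between 13439100 and 17069393 in fibrosis and between 15912080 and 17954551 in control. The B cell genes Cd79a and Ms4a1 were abundant in every library, with Ms4a1 between 710 and 971 CPM in fibrosis and between 547 and 751 CPM in control. Fibrosis libraries 4 and 5 stood apart from fibrosis 1, 2 and 3 on the second principal component, with the highest sums of platelet and neutrophil markers. The changes of the tested RGS genes are therefore also given without these libraries, a fit chosen after the data were seen. Of the other marker lists, 3 of 8 B cell identity, 2 of 8 T cell, 3 of 8 NK cell, 4 of 8 dendritic cell and 1 of 6 tested plasma cell genes were higher and 0 lower, and no marker list held a gene at 0 in every library. T cell markers summed to 81.9 to 148 CPM in fibrosis and to 70.9 to 98.7 CPM in control.

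RefSeq promoter windows (GRCm38.p6) were matched for 6 of the 9 members. The 250 bases before the start of Rgs2, Rgs13 and Rgs16 are shown because these chromosome 1 genes differed in level and in direction. Capitals mark CCAAT and GGGCGG, the CCAAT and GC boxes, on either strand; TATAAA, searched likewise, was in none of these 3 windows.
Rgs2 (chr1:144004150-144004399, minus strand): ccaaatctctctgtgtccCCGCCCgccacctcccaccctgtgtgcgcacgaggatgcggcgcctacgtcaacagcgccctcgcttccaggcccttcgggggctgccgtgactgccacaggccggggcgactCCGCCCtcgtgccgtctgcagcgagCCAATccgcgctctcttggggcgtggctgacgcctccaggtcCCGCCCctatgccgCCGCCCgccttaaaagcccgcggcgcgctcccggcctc
Rgs13 (chr1:144177373-144177622, minus strand): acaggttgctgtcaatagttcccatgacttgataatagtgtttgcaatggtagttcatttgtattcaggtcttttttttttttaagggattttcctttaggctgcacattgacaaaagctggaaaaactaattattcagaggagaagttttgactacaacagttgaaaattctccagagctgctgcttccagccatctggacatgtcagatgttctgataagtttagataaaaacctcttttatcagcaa
Rgs16 (chr1:153740103-153740352, plus strand): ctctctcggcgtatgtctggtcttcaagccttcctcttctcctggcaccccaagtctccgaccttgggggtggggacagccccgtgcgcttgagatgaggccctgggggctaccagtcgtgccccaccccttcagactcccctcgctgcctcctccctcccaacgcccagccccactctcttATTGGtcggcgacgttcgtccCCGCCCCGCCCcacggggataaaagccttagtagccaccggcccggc

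The Rgs2 window, of an abundant gene, held 1 CCAAT and 4 GGGCGG matches and was 72.4% G and C. That of Rgs16, the lowest gene, held 1 CCAAT match and 2 GGGCGG matches that overlap in a base, at 66.4% G and C. The window of Rgs13 held neither motif and was 36.0% G and C. Over the 32851 RefSeq windows of this length, CCAAT was found in 33.8%, GGGCGG in 32.7% and TATAAA in 12.4%. A match is a description of letters and not a bound site.

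Rgs1 encodes an early activation product of B cells that damps chemokine receptor signalling. The gene lies on the minus strand of chromosome 1 (chr1:144242296-144249242, GRCm38). It had 8.49, 15.7, 9.87, 17.4 and 22.5 CPM in fibrosis 1 to 5, against 4.76, 3.41, 4.36, 5.996 and 4.97 CPM in control 1 to 5. Every fibrosis library was above every control library, as for 11.4% of all tested genes (25.4% did not overlap in either direction), and fibrosis 1 and 3 were the lowest of the fibrosis group. The log2 fold change was 1.65 ± 0.26 (adjusted p = 0.000361 by edgeR), the largest among the 8 tested RGS genes. Without fibrosis 4 and 5 it was 1.28. With group means removed, Pearson's r of Rgs1 with the marker sums was highest for T cells (0.66) and for macrophages and monocytes (0.65). It was lowest for B cell identity markers (-0.56). These values are descriptions, and the part of these cells in the level of Rgs1 was not tested.

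Rgs18 is known for its abundance in platelets and megakaryocytes, where it restrains activation through Gi and Gq. Its level was 10.4, 14.1, 17.3, 18.6 and 28.1 CPM in fibrosis 1 to 5, against 7.22, 7.65, 10.2, 8.26 and 6.78 CPM in control. The groups did not overlap, although fibrosis 1 lay just above control 3. Its change of 1.14 ± 0.23 (adjusted p = 0.00174 by edgeR) compares with 0.80 without fibrosis 4 and 5, where it was called too.

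Platelet markers moved in the same libraries as Rgs18. Of 10 such genes, 9 were tested and all 9 were higher in fibrosis, while Gp1bb was at 1 count in each group. Their summed level ran from 251 CPM in fibrosis 1 to 1149 CPM in fibrosis 5, against 144 to 179 CPM in control. The order of the 5 fibrosis libraries was the same for this sum and for Rgs18. After group means were subtracted, Pearson's r between both on the log2 scale was 0.87 over 10 libraries, a description that shares library and depth. How far platelet RNA enters the level of Rgs18 was not tested.

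**Figure D1:**
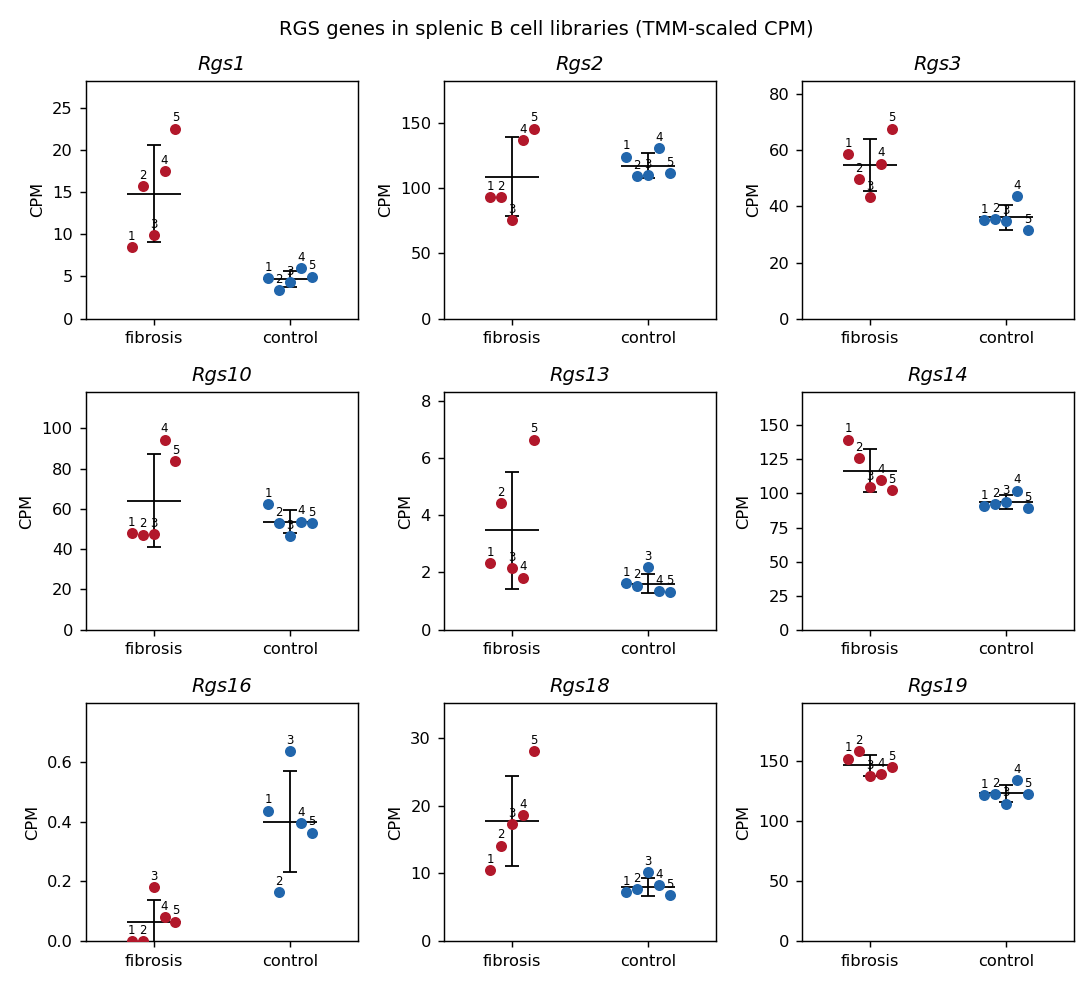
Level of each of the 9 RGS genes in CPM (vertical axis, linear and starting at 0) in the 5 fibrosis and 5 control libraries; points are libraries labelled by replicate number, bars are the mean ± SD. Rgs1, Rgs14, Rgs18 and Rgs19 do not overlap between groups, while Rgs2 and Rgs10 split the fibrosis group into libraries 4 and 5 at the top and 1, 2 and 3 at the bottom.

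Rgs13, known from germinal centre B cells and mast cells, was among the low members. It had 38, 72, 36, 23 and 102 counts in fibrosis 1 to 5, against 30, 28, 41, 24 and 22 counts in control. The mean level was 3.47 ± 2.04 CPM for fibrosis (SD, n = 5) and 1.61 ± 0.343 CPM for control (SD, n = 5). Fibrosis 5 and fibrosis 2 were the highest. In CPM, fibrosis 3 and 4 lay within the control range, and fibrosis 1 at 2.32 CPM lay just above control 3 at 2.18 CPM. The change was 1.11 ± 0.35 (adjusted p = 0.0241 by edgeR). Leaving out fibrosis 2, fibrosis 5, control 2, control 4 or control 5 ended the call, with log2 changes of 0.74 to 1.09 and edgeR's adjusted p between 0.0530 and 0.0702. All alternatives together gave 0.000926 to 0.0702, the lowest by edgeR without a filter on low counts. Without fibrosis 4 and 5 the change was 0.88 and was called.

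Among 8 germinal centre markers, 4 were higher and 0 lower by edgeR, and 0 were lower at an unadjusted p under 0.05. Their summed level was 216, 231, 232, 173 and 231 CPM in fibrosis 1 to 5, against 139 to 170 CPM in control. It was highest in fibrosis 3, where Rgs13 lay within the control range, and lowest in fibrosis 4. With group means removed, Pearson's r of Rgs13 over 10 libraries was 0.59 with this sum and 0.70 with the sum of the dendritic cell markers, as descriptions. The part of either cell type in the level of Rgs13 was not tested.

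Rgs3 can act on Gi and Gq and has long and short isoforms, which these gene counts do not separate. It was at 58.6, 49.8, 43.3, 55.3 and 67.8 CPM in fibrosis 1 to 5, against 35.1, 35.4, 34.7, 43.8 and 31.6 CPM in control. The groups touched only where fibrosis 3 lay below control 4. The change was 0.61 ± 0.12 (adjusted p = 0.00213 by edgeR) and 0.49 without fibrosis 4 and 5. With group means removed, Pearson's r of Rgs3 with the marker sums was highest for T cells (0.78) and neutrophils (0.77). It was lowest for B cell identity markers (-0.43). These values are descriptions, and the part of these cells in the level of Rgs3 was not tested.

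Rgs14 carries a Ras-binding region and a GoLoco motif that holds inactive Gi, beside its RGS domain. In fibrosis 1 to 5 it had 139, 126, 105, 110 and 102 CPM, against 90.9, 92.4, 93.9, 102 and 89.3 CPM in control. The lowest fibrosis library, number 5, lay just above the highest control, number 4. Its change was small, 0.31 ± 0.10 (adjusted p = 0.0213 by edgeR), and was larger without fibrosis 4 and 5, at 0.41. It was no longer called when fibrosis 2, control 1, control 2 or control 5 was left out (log2 changes of 0.28 to 0.31, edgeR's adjusted p between 0.0507 and 0.0592). Its adjusted p ran between 0.00332 and 0.123 in the alternatives.

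Rgs19, also called GAIP and a GTPase-activating protein for Gi members, was the most abundant of the 9 genes. It was at 152, 158, 138, 139 and 145 CPM in fibrosis 1 to 5, against 121, 122, 114, 134 and 122 CPM in control, without overlap. Its change of 0.25 ± 0.08 (adjusted p = 0.0208 by edgeR) stood at 0.29 without fibrosis 4 and 5. The call ended when fibrosis 2 or any control but number 4 was left out (log2 changes of 0.22 to 0.25, edgeR's adjusted p between 0.0515 and 0.0551). In the alternatives the adjusted p ran between 0.00812 and 0.294. With scaling by library size only, which shifted the median gene by -0.11, Rgs14 and Rgs19 were at 0.21 and 0.14 and were not called.

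**Figure D2:**
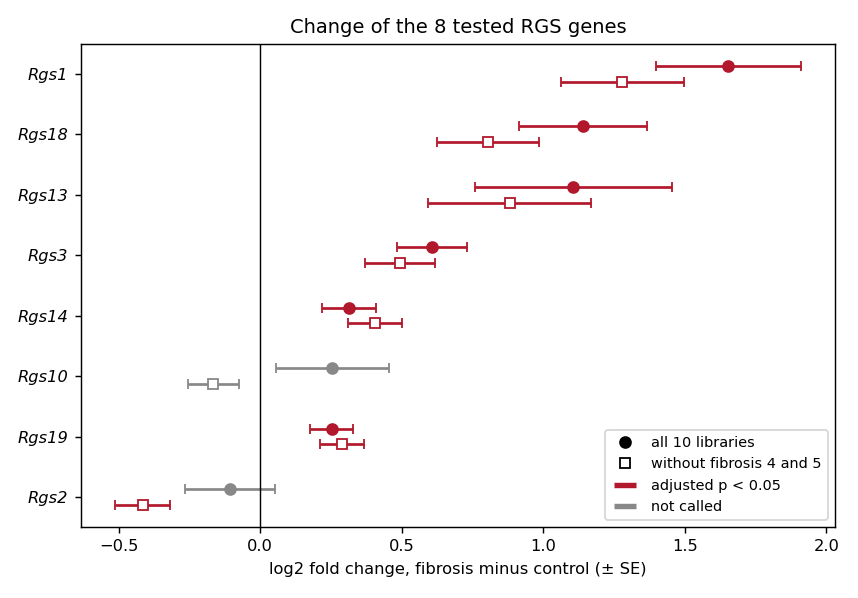
Log2 fold change, fibrosis minus control, of the 8 tested RGS genes (horizontal axis; bars are SE) with all 10 libraries (circles) and without fibrosis 4 and 5 (open squares); red marks an adjusted p under 0.05. With all libraries 6 genes are higher, from 0.25 for Rgs19 to 1.65 for Rgs1. Rgs2 is at -0.42 without fibrosis 4 and 5, the libraries where it was highest.

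Rgs2 prefers Gq over Gi and is known as an immediate early gene of lymphocytes. It had 93.1, 93.5 and 75.7 CPM in fibrosis 1, 2 and 3 and 137 and 146 CPM in fibrosis 4 and 5, against 124, 110, 110, 131 and 112 CPM in control 1 to 5. The first 3 fibrosis libraries thus lay below every control, and fibrosis 4 and 5 above every control. The difference over all libraries was -0.11 ± 0.16 (adjusted p = 0.640 by edgeR). Without fibrosis 4 and 5 it was -0.42 ± 0.10 and was called lower (adjusted p = 0.00523 by edgeR, the alternatives giving 0.00523 to 0.911). That fit, chosen after the data were seen, left out the only fibrosis libraries above control. A lower value followed from this choice, so the call is a description only.

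Rgs10, a small protein with little beyond its RGS domain that is also abundant in macrophages and platelets, was likewise highest in fibrosis 4 and 5. It had 47.8, 47.3 and 47.6 CPM in fibrosis 1, 2 and 3 and 94.4 and 83.7 CPM in fibrosis 4 and 5, against 62.4, 52.8, 46.7, 53.7 and 52.9 CPM in control. Fibrosis 1, 2 and 3 lay inside the control range and fibrosis 4 and 5 above it. The change was 0.25 ± 0.20 (adjusted p = 0.344 by edgeR) over all libraries. Its sign turned to -0.17 without fibrosis 4 and 5 and to -0.025 by limma voom with quality weights (adjusted p = 0.175 and 0.909, the range being 0.175 to 0.909 across all alternatives).

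Some marker sums also differed between fibrosis 1, 2 and 3 and fibrosis 4 and 5, in either direction. Macrophage and monocyte markers summed to between 865 and 1201 CPM in fibrosis 1, 2 and 3 and to 2678 and 2958 CPM in fibrosis 4 and 5, against 1343 to 2284 CPM in control. Neutrophil markers summed to between 265 and 994 CPM in the first 3 and to 3535 and 4425 CPM in fibrosis 4 and 5, against 395 to 1270 CPM in control. By edgeR 0 of the 8 macrophage and 0 of the 8 neutrophil markers were called, 0 and 2 at an unadjusted p under 0.05. B cell identity markers summed to at least 8040 CPM in fibrosis 1, 2 and 3 and to 6056 and 6355 CPM in fibrosis 4 and 5, against 5758 to 6567 CPM in control. With group means removed, Pearson's r over 10 libraries was 0.94 between Rgs2 and the macrophage sum and -0.97 between Rgs10 and the B cell sum, as descriptions. These were the strongest values among the marker lists, and others were strong too. Rgs2 had 0.90 with the neutrophil, 0.87 with the T cell and -0.83 with the B cell sum. Rgs10 had 0.92 with the macrophage and 0.85 with the neutrophil sum. The part of these cells in either level was not tested.

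**Figure D3:**
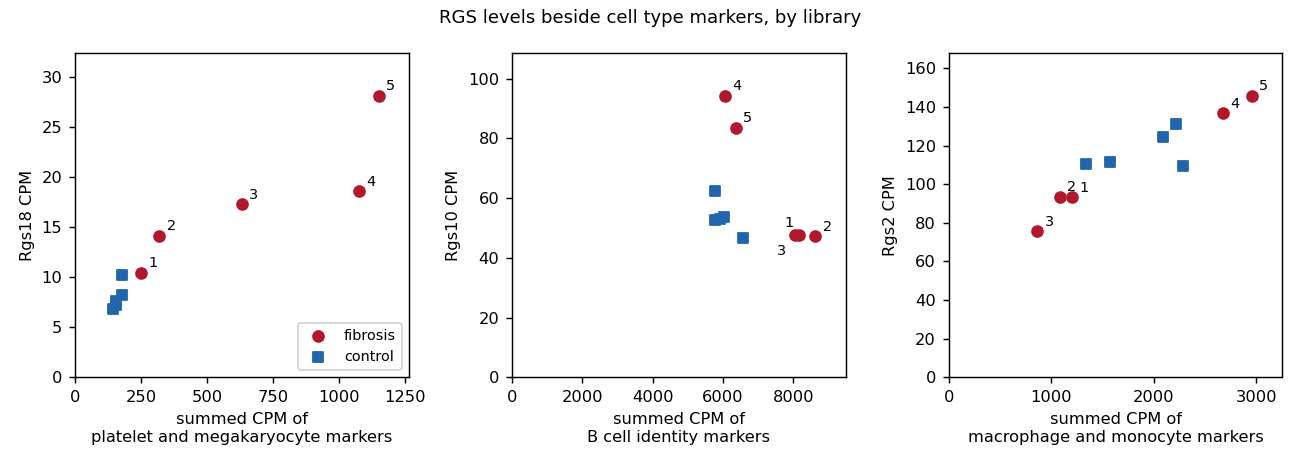
Levels of Rgs18, Rgs10 and Rgs2 in CPM (vertical axes, starting at 0) against the summed CPM of platelet, B cell identity and macrophage markers (horizontal axes); circles are fibrosis libraries with their replicate number and squares are control libraries. Fibrosis 4 and 5 have the highest platelet sums (1074 and 1149 CPM) and the highest Rgs2 and Rgs10 of the fibrosis group.

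Rgs16, which is induced in activated lymphocytes and acts on Gi and Gq, was nearly absent. It had 0, 0, 3, 1 and 1 counts in fibrosis 1 to 5, against 8, 3, 12, 7 and 6 counts in control, or 5 counts in all against 36. The groups overlapped only through fibrosis 3 and control 2. An exact two-sided permutation test on CPM gave p = 0.0159, unadjusted, where the smallest value it can give is 0.00794. That test was not planned and was added for Rgs16 alone, after it failed the filter on low counts. The log2 change of Rgs16 was -2.55 by edgeR without a filter, over 33548 genes (adjusted p = 0.00669), and -2.65 by DESeq2 (adjusted p = 0.0127). At such counts the size of the difference is poorly fixed. The edgeR fit without a filter gave Rgs2, Rgs10, Rgs14 and Rgs19 almost the same standard error (0.118 to 0.119). With the filter these ran from 0.077 to 0.199. The p-values of the fit without a filter therefore reflect the spread of single genes among libraries poorly. The antisense gene Gm28513 overlaps 10.1% of its exon bases and had 3 counts in all libraries, and the sources used here do not say whether counting used strand.

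Levels between genes were compared on the deposited FPKM, which divide by gene length. In fibrosis Rgs19 stood at 64.7 ± 4.91 FPKM, Rgs10 at 36.7 ± 12.6, Rgs2 at 29.5 ± 7.59 and Rgs14 at 27.1 ± 4.41, and the ranges of the last 3 overlapped. In control Rgs19 stood at 55.1 ± 3.44 FPKM, Rgs2 at 32.3 ± 2.79, Rgs10 at 31.4 ± 3.46 and Rgs14 at 22.1 ± 1.17, with overlap between Rgs2 and Rgs10 only. Far below came Rgs18 with 8.51 ± 2.89 FPKM in fibrosis and 3.94 ± 0.615 in control, and Rgs3 with 5.00 ± 0.766 and 3.34 ± 0.425. The 3 lowest were Rgs1 with 2.08 ± 0.750 FPKM in fibrosis and 0.676 ± 0.136 in control, Rgs13 with 2.04 ± 1.14 and 0.971 ± 0.199, and Rgs16 with 0.0271 ± 0.0312 and 0.170 ± 0.0710 (SD, n = 5 each). The ranges of Rgs1 and Rgs13 overlapped within fibrosis and within control, as did those of Rgs18 and Rgs3.

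The order below Rgs19, the highest gene in the mean by either length, depends on the length used. For Rgs1 the listed length of 6947 bases is the whole gene span, since its annotated exons together cover all of it, whereas its principal coding transcript in GENCODE M21 has 5 exons and 3841 bases. For Rgs3 the listed length is 10801 bases and the principal coding transcript 3888. Per kilobase of that transcript, Rgs3 reached 14.1 ± 2.38 CPM in fibrosis and 9.29 ± 1.17 CPM in control, above Rgs18 at 8.72 ± 3.25 and 3.95 ± 0.648 CPM. Rgs10 stood at 72.9 ± 26.2 CPM per kilobase in fibrosis and 61.0 ± 6.40 in control, Rgs14 at 49.4 ± 6.71 and 39.8 ± 2.11, and Rgs2 at 36.1 ± 10.1 and 38.8 ± 3.23. Rgs14 was thus no longer below Rgs2 in the mean of either group, and in control Rgs10 was above both, although the ranges of Rgs14 and Rgs2 overlapped in both groups. Rgs1 on this scale reached 3.85 ± 1.49 CPM in fibrosis and 1.22 ± 0.245 CPM in control. Over the summed FPKM of the 9 genes, 176 ± 19.4 in fibrosis and 150 ± 8.87 in control, Rgs2 took 16.6% ± 2.53 in fibrosis and 21.5% ± 0.685 in control, and Rgs1 took 1.17% ± 0.333 and 0.449% ± 0.0740 (SD, n = 5 each).

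The genes Rgs2, Rgs13, Rgs1, Rgs21 and Rgs18 lie in this order on chromosome 1 within 776 kb, all on the minus strand (chr1:143999338-144775435, GRCm38). In this cluster the genes differed. Rgs13, Rgs1 and Rgs18 were higher, Rgs2 did not pass the test, and Rgs21, a gene known from taste tissue, had 2 counts in fibrosis and 3 in control. Within 500 kb on either side, 5 other genes were tested, of which Trove2 was higher (1.41 ± 0.25; adjusted p = 0.000913 by edgeR) and Cdc73, Glrx2, Uchl5 and Gm29170 were not called. The median over these 5 was -0.06. All of them lie on the Rgs2 side of the cluster, and no gene within 500 kb beyond Rgs18 was tested. Rgs16 also lies on chromosome 1, outside the cluster, from 153740349 to 153745468 on the plus strand.

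**Figure D4:**
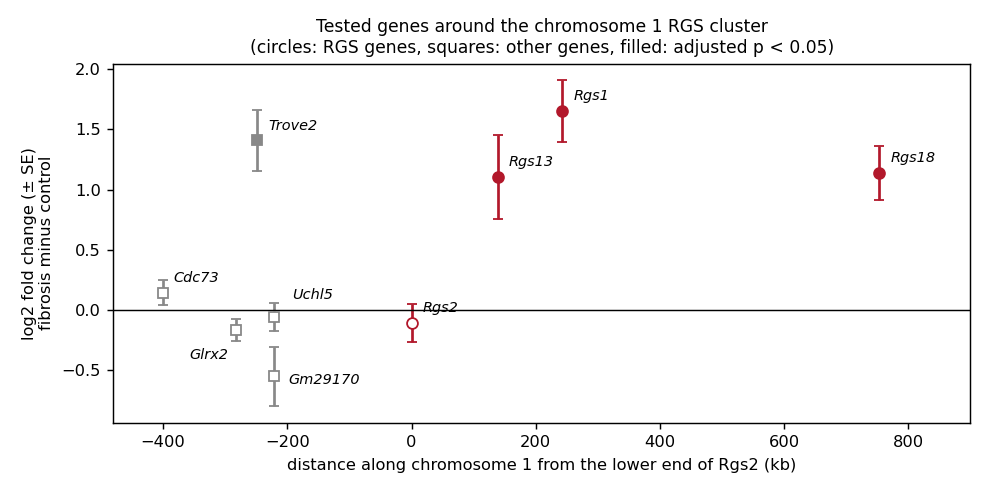
Log2 fold change, fibrosis minus control (vertical axis; bars are SE), of the tested genes around the chromosome 1 cluster against the distance in kb from the lower end of Rgs2; circles are RGS genes, squares are other genes, and filled symbols passed the test. Rgs13, Rgs1 and Rgs18 lie between 1.11 and 1.65, while Rgs2 at 0 kb lies at -0.11.

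The genes whose pattern was closest to each member were found by Pearson's r on log2 CPM over the 10 libraries after subtracting group means, among 10715 protein-coding genes. For Rgs18 the closest were Arhgap15, Gmfb and Zfp322a (r = 0.97 each), and for Rgs1 they were Nabp1, Atg5 and Nck1 (0.95, 0.94 and 0.93). Rgs2 was closest to Rps20, Rps18 and Pfdn5 (0.99, 0.98 and 0.98) and Rgs10 to Magoh, Ndufb4 and Ndufv2 (all 0.99). For Rgs13 these were Fcgr2b, Slfn9 and Usp3 (0.93, 0.92 and 0.91), for Rgs14 Limd2, Itgb7 and Slc15a4 (0.98, 0.97 and 0.97), for Rgs3 Coa4, Pira2 and Zfand3 (0.97 each) and for Rgs19 Tmem185a, P3h1 and Cap1 (0.92, 0.91 and 0.89). With 10 libraries that share depth and scaling these values only describe the pattern. Between members, Rgs2 and Rgs10 had the highest r at 0.90, and Rgs14 and Rgs18 the lowest at -0.71.

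Of 15 other genes of the family or bearing its name, 12 had too few counts to test. Rgs12, a large relative of Rgs10 and Rgs14 with further signalling domains, was at 42.5, 28.8, 35.2, 41.1 and 20.5 CPM in fibrosis 1 to 5, against 96.5, 97.2, 97.3, 92.0 and 126 CPM in control. All fibrosis libraries lay below all control libraries, as for 14.0% of tested genes, and the change was -1.60 ± 0.18 (adjusted p = 4.27e-05 by edgeR). Rgs9bp, which anchors Rgs9 in retina, was also lower at -1.56 ± 0.39 (adjusted p = 0.00722 by edgeR), with 39 counts in fibrosis and 138 in control. Rgs11 was higher at 1.13 ± 0.35 (adjusted p = 0.0229 by edgeR), with 90 counts against 47, and lost its call without fibrosis 5 and without fibrosis 4 and 5 (adjusted p = 0.0584 and 0.0597 by edgeR, 0.0188 to 0.0597 in the alternatives). Erythroid markers, of which 7 of 10 were lower, summed to between 763 and 4448 CPM in fibrosis and between 3040 and 4987 CPM in control, and their part in the level of Rgs12 was not tested.

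Receptors that signal through these G proteins were mostly higher. Of 23 such genes, 17 were higher and 1 lower, where 18.6% of all tested genes were higher and 17.2% lower. The median log2 change of the 23 was 0.56, and the list was chosen with earlier results of these data known. The lower receptor was Ptger4, a prostaglandin E2 receptor (-0.34 ± 0.09). With scaling by library size only, 13 receptors were higher and 3 lower. P2ry10, a receptor of lysophospholipids, had 118 ± 22.1 CPM in fibrosis and 44.9 ± 5.05 CPM in control (1.39 ± 0.13; adjusted p = 1.55e-05 by edgeR). Gpr174, a lysophosphatidylserine receptor, was higher by 1.20 ± 0.16, the chemokine receptor Cxcr3 by 1.28 ± 0.17, the oxysterol receptor Gpr183 by 0.61 ± 0.07 and Gpr132 by 0.56 ± 0.09.

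The receptors that place B cells in the follicle and carry them out of it were called too. Cxcr5, which leads B cells into follicles, had 463 ± 87.9 CPM in fibrosis and 318 ± 19.7 CPM in control (0.54 ± 0.12), and Ccr7 260 ± 44.5 and 162 ± 12.3 CPM (0.69 ± 0.12). Cxcr4 was at 350, 477, 182, 223 and 273 CPM in fibrosis 1 to 5, against 144, 173, 160, 180 and 210 CPM in control, with fibrosis 3 inside the control range (0.80 ± 0.22; adjusted p = 0.0145 by edgeR). The sphingosine-1-phosphate receptors S1pr1 (0.40 ± 0.13) and S1pr2 (0.72 ± 0.25) had adjusted p-values of 0.0280 and 0.0383 by edgeR and lost their calls in 10 and 11 of 21 alternatives. Leaving out any library but fibrosis 4 or 5 or control 3 ended the call of S1pr1 (0.34 to 0.39; adjusted p from 0.0557 to 0.0851, and 0.000520 to 0.122 over all alternatives). That of S1pr2 ended without any library but fibrosis 4 or control 1 (0.60 to 0.74; adjusted p from 0.0572 to 0.0898, and 0.000186 to 0.0898 over all alternatives). T, NK and dendritic cells express some of these receptors, and dendritic cell markers summed to between 269 and 328 CPM in fibrosis and between 160 and 175 CPM in control; their part was not tested.

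Among 11 tested alpha subunits, 2 were higher and 2 lower, where 18.6% of all tested genes were higher and 17.2% lower. Gnai3, a Gi subunit, had 112 ± 9.31 CPM in fibrosis and 74.5 ± 3.76 CPM in control (0.59 ± 0.08; adjusted p = 0.000153 by edgeR), while the more abundant Gnai2 had 1133 ± 86.7 and 1054 ± 69.7 CPM (0.10 ± 0.09; adjusted p = 0.386 by edgeR). Gnaz, a Gi-class subunit also known in platelets, was higher at 1.63 ± 0.27, with its 2 highest values in fibrosis 4 and 5 (5.08 and 5.66 CPM). Gna12 was lower at -0.47 ± 0.12 and Gna14 at -1.93 ± 0.48, Gna14 with 23 counts in fibrosis and 105 in control. Gnaq (0.15 ± 0.09) and Gna13 (0.27 ± 0.10) did not pass.

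Of 11 tested beta and gamma subunits, 3 were higher and 0 lower by edgeR, and 0 were lower at an unadjusted p under 0.05. Over all tested genes, 18.6% were higher and 17.2% lower by edgeR. Gng2 was higher by 0.56 ± 0.09. Gng11, which platelets express, was at 21.9, 30.2, 50.5, 94.7 and 106 CPM in fibrosis 1 to 5, against 16.4, 14.0, 14.4, 17.0 and 10.9 CPM in control, in the order of the platelet sum (2.06 ± 0.40; adjusted p = 0.00243 by edgeR). Without fibrosis 4 and 5 its change was 1.24 and was called. Gngt2, at 0.60 ± 0.21, lost its call in 13 of 21 alternatives and was at 0.15 without fibrosis 4 and 5.

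Receptor kinases and arrestins, which uncouple receptors independently of RGS proteins, held 1 called gene among 7. Over all tested genes, 35.7% were called in either direction. Arrb1, arrestin beta 1, had 142 ± 12.8 CPM in fibrosis and 286 ± 26.7 CPM in control, without overlap (-1.01 ± 0.09; adjusted p = 1.55e-05 by edgeR). Among 7 other regulators of alpha subunits, the chaperone Ric8a (0.29 ± 0.08) and the GoLoco protein Gpsm3 (0.41 ± 0.08) were higher. Ric8a lost its call in 2 of 21 alternatives, library size only and no filter. Gpsm2, a GoLoco protein that acts at the mitotic spindle, was lower, with 16.4 ± 5.87 CPM in fibrosis and 49.2 ± 10.5 CPM in control (-1.58 ± 0.23; adjusted p = 0.000296 by edgeR).

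Among 18 effectors, 1 was higher, 4 were lower and 13 were not called, with a median log2 change of -0.12, where 18.6% of all tested genes were higher and 17.2% lower. The adenylate cyclase Adcy6 had 25.6 ± 4.92 CPM in fibrosis and 59.9 ± 9.84 CPM in control (-1.23 ± 0.15), and Adcy9 was lower at -0.64 ± 0.19, without a call when control 5 was left out. Rap1gap2 was lower at -0.48 ± 0.14 and Arhgef12 at -0.40 ± 0.14, the last losing its call in 8 of 21 alternatives. Rasgrp2, an exchange factor for Rap1, was higher at 0.28 ± 0.08 and lost its call in 2 of 21 alternatives, library size only and no filter. Over the 7 lists of this pathway, 26 genes were higher and 11 lower of 80 tested, and 19 were higher and 16 lower with scaling by library size only.

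**Figure D5:**
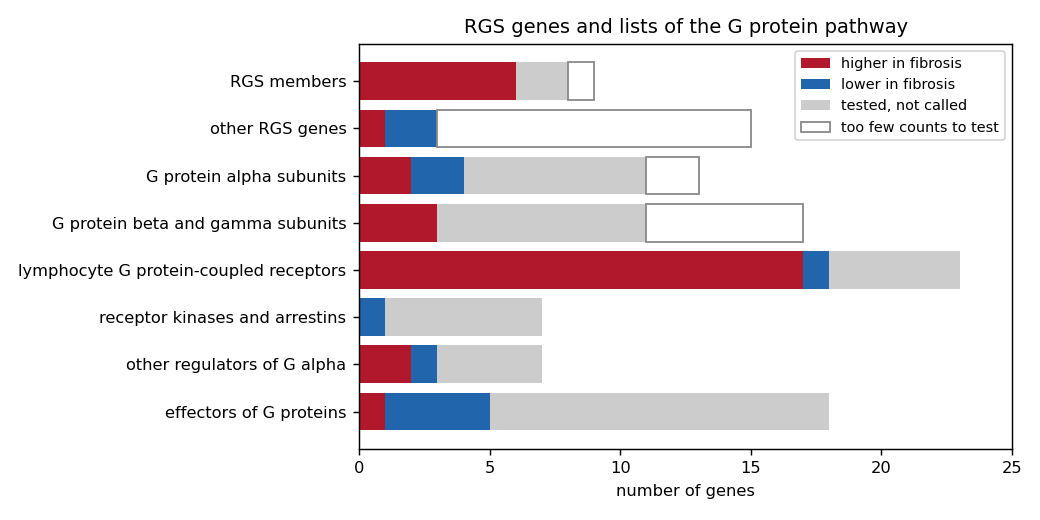
Number of genes (horizontal axis) that were higher in fibrosis, lower in fibrosis, tested without a call, or too low to test, for the 9 RGS genes and 7 lists of the G protein pathway. The receptor list has 17 higher genes of 23, while effectors have 1 higher and 4 lower of 18. Of all tested genes, 18.6% were higher and 17.2% lower.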

How the data were processed

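Poly-T-selected RNA was sequenced, per the labels' protocols. The authors deposited raw read counts for each gene, as whole numbers, and FPKM, scaled by listed gene length and sequencing depth. The submitters' processing notes name GRCm38 (mm10); the sources used here name no aligner, counter or strand setting. Of 54532 genes, edgeR 4.0.16 (R 4.3.3) kept 14283 with filterByExpr, holding 99.9% of counts. The fit used TMM, the robust quasi-likelihood test without covariates and Benjamini-Hochberg adjustment over all tested genes. It was also run on simulated counts with a common spread for all genes and libraries of a group alike but for depth. That run does not cover the split of fibrosis 4 and 5 from the other fibrosis libraries. The standard error is the absolute log2 fold change over the square root of F. Alternatives used DESeq2 1.42.0, limma 3.58.1 (voom, or log2 of FPKM plus 1 or 0.1), other scalings and filters, the replicate number as a block, and fits without single libraries or without fibrosis 4 and 5. No libraries looked duplicated (chi-square per degree of freedom at least 5.81). RGS genes, 7 pathway lists and 10 marker lists were chosen with earlier results of these data known. Named were all 9 RGS genes, up to 6 called genes per pathway list with the smallest p, a preset group of subunits and receptors, and the 3 closest patterns per tested RGS gene; other genes were named after their values were seen. Gene coordinates and names are from the count table, transcripts from GENCODE M21.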

Additional observations from a re-analysis of the deposited data

Results flagged for a closer look

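In groups of 5 libraries, a library was singled out when its distance to the nearest other library took up most of the range of the group by Dixon's test, which chance alone gives in about 1 of 20 groups. None of the 9 RGS genes was singled out in either group. Control 5 held 126 CPM of Rgs12, above the other controls. Control 3 held 201 CPM of S1pr1, above the other controls. Fibrosis 4 had the highest erythroid marker sum of the fibrosis group, 4448 CPM, and its lowest germinal centre marker sum, 173 CPM.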

How the results depend on the processing

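Rgs1, Rgs3 and Rgs18 kept direction and call in all 21 alternatives. The number of RGS genes called higher was 6, 4 with library size only, with no filter and with log2(FPKM + 1), and 5 with log2(FPKM + 0.1). It lay between 3 and 6 when single libraries were left out, and was 3 without fibrosis 2, control 2 or control 5. The number called lower was 1 with no filter and with DESeq2 (Rgs16 in both). It was also 1 without fibrosis 4 and 5 (Rgs2, which was highest in those libraries). Rgs10 turned to -0.025 by voom and to -0.17 without fibrosis 4 and 5. Other than these, 144 of 168 values of single RGS genes kept their call, 21 lost it and 1 gained it; the cause was not tested. Higher genes were 70.3% of calls in the pathway lists, 54.3% with library size only, and 52.0% and 35.0% over all genes. Whether replicate numbers pair libraries could not be decided from so few values (r of same-numbered deviations from -0.25 to 0.42). Of 5 fibrosis libraries, 3 were closest to the control of their own number. With the number as a block, 6 RGS genes were higher and none (0) lower, 26 and 13 pathway genes, and 2677 and 2534 of all genes. Counts were few for Rgs16 (5 in fibrosis and 36 in control) and for Rgs13 (271 and 145). The part of depth in their results was not tested.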
